A study of Homo sapiens with 24 samples.

Results

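The small nucleolar RNA (snoRNA) host genes described here are GAS5, SNHG1, SNHG5, SNHG6, SNHG7, SNHG8, SNHG12, SNHG15, SNHG16 and ZFAS1. They were taken by symbol from a table of gene counts, whatever gene type the table gave them, and 10 of its 48162 rows matched. RNA sequencing was carried out on PPC1, a human prostate cancer cell line, as parental cells (UT) and as polyploid giant cancer cells (PGCC), each with and without LCL521, an inhibitor of the lysosomal enzyme acid ceramidase (ASAH1). The design asks how giant cells that survive irradiation differ from the cells they came from, and what blocking acid ceramidase does to each population.

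The 4 groups held 6 libraries each. UT cells received no radiation and no drug, and UT_LCL cells received no radiation and 5 μM LCL521 for 5 hours. PGCC cells received 8 Gy of radiation on day 2, and PGCC_LCL cells received the same dose followed by 5 μM LCL521 for 5 hours. All cells were collected on day 5 according to the labels. Cells from irradiated plates were held back on a 20 micron strainer to enrich giant cells, and parental cells were not filtered, so irradiation, size selection and handling cannot be told apart. All libraries came from 1 cell line. KRT8 and KRT18, keratins of epithelial cells, had at least 833 and 2402 counts in every library. EPCAM, another epithelial marker, had only 0 to 17 counts. KLK3, a marker of prostate luminal cells, had 0 counts in every library.

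snoRNAs are short nuclear RNAs that guide the chemical modification of ribosomal RNA. Box C/D snoRNAs direct methylation of the ribose, and box H/ACA snoRNAs direct the change of uridine to pseudouridine. In human cells most are cut from introns of longer transcripts. The host genes here are non-coding: the snoRNAs lie in their introns, and the spliced host RNA is often short-lived because it is read by ribosomes and removed by nonsense-mediated decay. Several host RNAs start with a 5′ terminal oligopyrimidine (TOP) tract, the C followed by pyrimidines that also opens the mRNAs of ribosomal proteins and ties their translation to nutrient and mTOR signalling. The counts measure the spliced and unspliced host RNA, not the snoRNA itself.

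The promoters are shown because a TOP start is the feature these genes are known to share with ribosomal protein mRNAs. RefSeq windows on GRCh38.p14 were found for 8 of the 10 host genes, and SNHG6 and SNHG15 had none. Each line holds 50 bases before and 50 bases from the annotated first base, 5′ to 3′ on the strand of the gene. Capitals mark the pyrimidine run that starts with C, is at least 5 bases long and begins closest to the first base, within 10 bases on either side.
GAS5 (chr1:173868996-173869095, minus strand): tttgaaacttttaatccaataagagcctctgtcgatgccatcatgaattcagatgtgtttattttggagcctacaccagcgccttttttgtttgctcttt
SNHG1 (chr11:62855836-62855935, minus strand): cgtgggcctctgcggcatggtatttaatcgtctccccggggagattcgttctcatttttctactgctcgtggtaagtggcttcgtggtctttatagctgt
SNHG5 (chr6:85678684-85678783, minus strand): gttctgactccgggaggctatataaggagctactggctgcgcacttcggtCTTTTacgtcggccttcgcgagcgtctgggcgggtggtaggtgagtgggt
SNHG7 (chr9:136728135-136728234, minus strand): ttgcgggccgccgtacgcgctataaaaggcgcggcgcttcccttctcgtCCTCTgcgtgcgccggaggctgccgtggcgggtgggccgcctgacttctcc
SNHG8 (chr4:118278712-118278811, plus strand): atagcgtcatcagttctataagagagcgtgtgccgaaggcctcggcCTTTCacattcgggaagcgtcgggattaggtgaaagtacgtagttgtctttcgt
SNHG12 (chr1:28581824-28581923, minus strand): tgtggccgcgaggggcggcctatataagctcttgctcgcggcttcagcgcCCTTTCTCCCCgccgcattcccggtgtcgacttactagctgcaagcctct
SNHG16 (chr17:76557714-76557813, plus strand): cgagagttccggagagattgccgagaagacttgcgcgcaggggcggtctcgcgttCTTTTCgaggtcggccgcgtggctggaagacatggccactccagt
ZFAS1 (chr20:49278592-49278691, plus strand): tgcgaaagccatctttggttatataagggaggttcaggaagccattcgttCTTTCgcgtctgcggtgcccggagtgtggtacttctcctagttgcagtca

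A pyrimidine run of this kind began exactly at the first base in 3 of 8 windows, those of SNHG5, SNHG12 and ZFAS1, against 4.07% of all 35116 promoters in the table. In SNHG12 the run was 11 bases long, and in SNHG5 and ZFAS1 it was 5. Within 10 bases of the start it was found in 6 of 8, against 33.5% of all promoters and 65 of 78 ribosomal protein promoters. GAS5 and SNHG1 had none in that window. Annotation places many starts in a gene: of 29 annotated GAS5 transcripts in GENCODE v29, 6 began with such a run. The same held for 3 of 23 SNHG5, 4 of 17 SNHG12 and 3 of 10 ZFAS1 transcripts. For SNHG1, SNHG7, SNHG8 and SNHG16 it held for 1 of 25, 0 of 4, 1 of 5 and 2 of 8. The motif TATAA, searched on the strand of the gene 40 to 15 bases before the start and added after the sequences were seen, was in 5 of 8 windows (SNHG5, SNHG7, SNHG8, SNHG12 and ZFAS1) against 3.91% of all promoters. The longer TATAAA, searched on both strands of the whole promoter window in the table, was in 2 of 8 against 11.5%. CACGTG, which reads the same on both strands, was in 1 of 8 against 7.26%. A matching run of letters is a description of the window and not a mapped start site or binding site.

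The intron-encoded products are shown so that the hosts can be told apart by what they carry. GENCODE v29 (GRCh38) places 7 snoRNA entries in SNHG1, 5 in SNHG12, 4 in SNHG7, 3 each in SNHG16 and ZFAS1, and 1 each in SNHG5, SNHG6, SNHG8 and SNHG15. Entries are not all separate snoRNAs. In SNHG7, RF00560 and SNORA17A cover nearly the same bases, as do the SNORA17B entries, and the same holds for the SNORA16A entries in SNHG12. GAS5 is known as a host of several box C/D snoRNAs, but this annotation places none inside it. Of the named entries, those in SNHG1, SNHG5, SNHG6, SNHG16 and ZFAS1 are box C/D, those in SNHG7, SNHG8 and SNHG15 are box H/ACA, and SNHG12 carries 4 box H/ACA entries and 1 box C/D. The first entry from the 5′ end of each host with recognisable boxes follows, except for SNHG6, whose SNORD87 was not searched for boxes. Capitals mark the C box (TGATGA) and the D box (CTGA) of box C/D snoRNAs, or the ACA that stands 3 bases from the 3′ end of box H/ACA snoRNAs.
SNORD25 in SNHG1 (chr11:62855564-62855632, minus strand): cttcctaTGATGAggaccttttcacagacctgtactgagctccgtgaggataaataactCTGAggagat
SNORD50B in SNHG5 (chr6:85677589-85677658, minus strand): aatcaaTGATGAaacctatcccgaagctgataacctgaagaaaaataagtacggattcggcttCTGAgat
SNORA17A in SNHG7 (chr9:136726747-136726879, minus strand): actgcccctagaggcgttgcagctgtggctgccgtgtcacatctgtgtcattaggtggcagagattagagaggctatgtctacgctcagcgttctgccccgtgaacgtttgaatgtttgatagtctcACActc
SNORA24 in SNHG8 (chr4:118279190-118279320, plus strand): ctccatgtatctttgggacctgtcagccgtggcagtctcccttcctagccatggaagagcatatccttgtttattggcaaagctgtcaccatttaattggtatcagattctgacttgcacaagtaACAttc
SNORA16A in SNHG12 (chr1:28580920-28581054, minus strand): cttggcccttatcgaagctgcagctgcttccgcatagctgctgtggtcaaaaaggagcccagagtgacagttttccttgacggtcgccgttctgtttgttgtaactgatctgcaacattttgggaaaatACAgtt
SNORA9 in SNHG15 (chr7:44985378-44985510, minus strand): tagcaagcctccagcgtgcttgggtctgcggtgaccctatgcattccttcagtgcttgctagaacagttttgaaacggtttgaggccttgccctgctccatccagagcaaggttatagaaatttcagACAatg
SNORD1B in SNHG16 (chr17:76561109-76561192, plus strand): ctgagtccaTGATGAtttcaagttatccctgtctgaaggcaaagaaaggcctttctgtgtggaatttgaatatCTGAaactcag
SNORD12C in ZFAS1 (chr20:49278940-49279028, plus strand): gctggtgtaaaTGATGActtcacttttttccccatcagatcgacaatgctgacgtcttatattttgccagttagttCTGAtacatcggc

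Levels were compared between the host genes as CPM, the count scaled to a common library size, divided by gene length (CPM per kb). In UT cells ZFAS1 was highest at 147 ± 32.2 CPM per kb (SD, n = 6). SNHG6 (61.0 ± 6.20), GAS5 (54.7 ± 32.9) and SNHG16 (54.6 ± 10.4) followed, and these lay within each other's spread. SNHG8 (37.2 ± 16) and SNHG5 (35.5 ± 9.28) did not differ beyond their spread either, and SNHG1 stood at 25.2 ± 7.28. SNHG15 (12.9 ± 2.24), SNHG7 (12.3 ± 3.37) and SNHG12 (7.93 ± 3.45) were lowest. In PGCC cells ZFAS1 was still first at 115 ± 16.4 CPM per kb. SNHG1 rose in this order to 39.7 ± 10.7, within the spread of SNHG16 at 43.2 ± 4.25, while GAS5 stood at 32.7 ± 5.74.

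Each library held between 14835246 and 19906601 counts, and the host genes made up between 0.0546% and 0.0902% of them. The lowest count of any host gene in any library was 125, for SNHG12, and the highest was 4730, for SNHG16. All 10 host genes passed the filter on low counts in every comparison. The libraries of replicates 4 and 5 stood apart from the others in all 4 groups. Over 14555 genes, the second principal component carried 16.5% of the variance and placed all 8 of these libraries at 13.3 or above and the other 16 at -4.11 or below. The labels name no batch for them. Several host genes moved with these replicates, and the fold changes of the host genes between the populations are given with and without them. Counts are shares of each library, so fewer molecules per cell and a changed mix of cells cannot be told apart in these bulk samples.

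**Figure D1:**
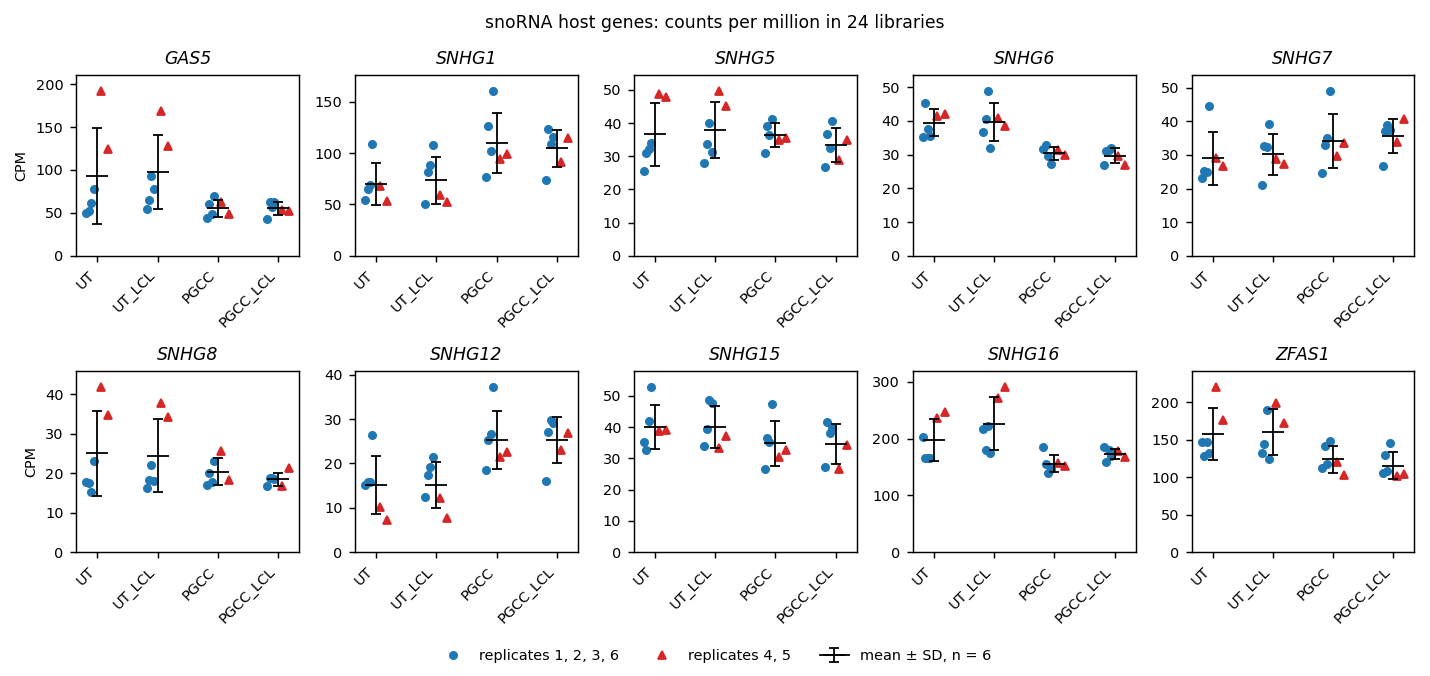
CPM of each host gene (y axis, from 0) in every library of the 4 groups (x axis). Blue circles are replicates 1, 2, 3 and 6, red triangles are replicates 4 and 5, and black bars are the mean ± SD of 6 libraries. GAS5 in replicates 4 and 5 of UT and UT_LCL cells lies between 125 and 192 CPM, above every other library, and SNHG6 is the gene whose UT and PGCC libraries do not overlap.

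PGCC and UT cells were compared to ask which host genes accompany the giant cell state. SNHG12 and SNHG1 rose in PGCC, and SNHG6 and SNHG16 fell. The other 6 did not pass the test at an adjusted p of 0.05. Log2 fold changes below come from the quasi-likelihood test of edgeR, with Benjamini-Hochberg adjustment of its p-values across the 13812 genes tested. The count of 4 called of 10 stands beside 47.4% of all genes called in this comparison, 23.1% higher and 24.3% lower in PGCC, so the share of host genes that changed was near that of genes at large. The median log2 fold change was -0.24 over the 10 host genes and -0.03 over all genes. Without replicates 4 and 5 it was 0.02 over the host genes, with 3 called, beside 54.6% of all genes, and leaving out replicate 4 alone left 2 host genes called, beside 45.9%.

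Among the hosts of box H/ACA snoRNAs, SNHG12 (ENSG00000197989, hg19 chr1:28905050-28909495, minus strand) changed most. It ranged from 7.29 to 26.5 CPM in UT cells with a median of 15.4, and from 18.5 to 37.2 CPM in PGCC cells with a median of 23.9. All 6 PGCC libraries lay above their UT library of the same number, although the highest UT library overlapped the PGCC range. Its log2 fold change was 0.76 ± 0.26 (SE, adjusted p = 0.027). It remained called without replicates 4 and 5 together (0.58, adjusted p = 0.038) and was lost on leaving out replicate 2, 3 or 4 alone, where the adjusted p was 0.070, 0.071 and 0.053.

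SNHG7 (ENSG00000233016, hg19 chr9:139615818-139622636, minus strand), which carries SNORA17 copies, had a median of 26.0 CPM in UT cells (23.0 to 44.6) and of 33.3 CPM in PGCC cells (24.7 to 49.0). The groups overlapped, with PGCC higher in 6 of 6 same-numbered pairs. A log2 fold change of 0.25 ± 0.19 did not pass the test (adjusted p = 0.29), and with the replicate number as a block it did (0.25 ± 0.085, adjusted p = 0.031). The block raised the host genes called to 5, beside 56.2% of all genes. Without replicates 4 and 5 the change was 0.29 ± 0.23.

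SNHG8, the host of SNORA24 (ENSG00000269893, hg19 chr4:119199864-119200978, plus strand), and SNHG15, the host of SNORA9 (ENSG00000232956, hg19 chr7:45022622-45026560, minus strand), did not pass the test. SNHG8 had a median of 20.4 CPM in UT cells (15.3 to 41.7) and 19.1 CPM in PGCC cells (17.0 to 25.7). Its 2 highest UT libraries were replicates 4 and 5, and the log2 fold change of -0.29 ± 0.23 turned to 0.10 ± 0.15 without them. SNHG15 had a median of 39.0 CPM in UT cells (32.8 to 52.7) and 34.0 CPM in PGCC cells (26.5 to 47.6). PGCC was lower in 5 of 6 pairs, with a log2 fold change of -0.20 ± 0.15 (adjusted p = 0.30), and -0.13 ± 0.18 without replicates 4 and 5.

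Among the hosts of box C/D snoRNAs, SNHG1 (ENSG00000255717, hg19 chr11:62619460-62623386, minus strand) was the gene that rose. It ranged from 53.2 to 108 CPM in UT cells with a median of 66.6, and from 76.2 to 160 CPM in PGCC cells with a median of 101. PGCC was higher in 6 of 6 pairs, and replicate 6 of UT overlapped the PGCC range. On the log2 scale the change was 0.67 ± 0.20 (adjusted p = 0.013) and was the same size, 0.67 ± 0.23, without replicates 4 and 5. Leaving out replicate 2 ended the call (0.59, adjusted p = 0.060).

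SNHG6 (ENSG00000245910, hg19 chr8:67833919-67838633, minus strand), the host of SNORD87, had the smallest spread in relation to its mean in both groups (coefficients of variation of 10.2% in UT and 6.57% in PGCC) and fell. Its UT libraries lay between 35.2 and 45.2 CPM with a median of 39.5, and its PGCC libraries between 27.1 and 32.7 CPM with a median of 30.7. The groups did not overlap, which was also true of 26.5% of the 14555 genes kept over all libraries. The log2 fold change was -0.37 ± 0.087 (adjusted p = 0.0029). An exact two-sided permutation test over all divisions of the 12 libraries gave p = 0.0022, the smallest this design allows. It fell in both sets of replicates, with a mean difference in log2 CPM of -0.44 over the pairs numbered 4 and 5 and of -0.34 over the other 4 pairs. The row of SNORD87 itself, inside SNHG6 on the same strand, held 0 counts. It spans 78 bases, and the paper states a preference for longer library fragments, so this 0 does not show that the snoRNA was absent.

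SNHG16 (ENSG00000163597, hg19 chr17:74553848-74561430, plus strand), the host of the SNORD1 family, was the most abundant host gene by count. It ranged from 165 to 246 CPM in UT cells with a median of 184, and from 140 to 185 CPM in PGCC cells with a median of 154. PGCC was lower in 6 of 6 pairs, and the groups overlapped. The log2 fold change was -0.33 ± 0.12 (adjusted p = 0.031). The size depended on replicates 4 and 5, whose UT libraries were the 2 highest: the fold change was -0.14 ± 0.097 without them, and the adjusted p was 0.24, or 0.046 when the block was added. Leaving out replicate 4 or 5 alone also ended the call, at an adjusted p of 0.094 and 0.11.

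GAS5 (ENSG00000234741, hg19 chr1:173833038-173838020, minus strand), named for its accumulation in growth-arrested cells, had the widest relative spread of the host genes in UT cells (coefficient of variation 60.2%). There replicates 4 and 5 stood at 192 and 125 CPM, and the other 4 libraries lay between 50.1 and 77.8 CPM. In PGCC cells all 6 libraries lay between 44.2 and 69.2 CPM. Replicates 4 and 5 averaged 2.63 times the others in UT, 2.04 times in UT_LCL, 0.996 times in PGCC and 0.946 times in PGCC_LCL. A larger difference between these replicates and the rest in UT was found for 5.12% of the 14555 genes. The log2 fold change between PGCC and UT was -0.74 ± 0.30 and did not pass the test (adjusted p = 0.056), although it did with DESeq2 (adjusted p = 0.033), with no filter beyond 1 count (0.026), with all 24 libraries in 1 fit (0.032) and without replicate 2 (0.046). By pair, the mean difference in log2 CPM was -1.50 over numbers 4 and 5 and -0.12 over the other 4 pairs. Without the former the fold change was -0.10 ± 0.16.

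ZFAS1 (ENSG00000177410, hg19 chr20:47894715-47905797, plus strand), the host of the SNORD12 family and antisense to the zinc finger gene ZNFX1, showed the same arrangement at a smaller size. Its median was 146 CPM in UT cells (128 to 220) and 119 CPM in PGCC cells (103 to 148). The highest UT libraries were replicates 4 and 5. The log2 fold change was -0.35 ± 0.14 (adjusted p = 0.054), and -0.07 ± 0.10 without those replicates. ZFAS1 was called with no filter beyond 1 count (adjusted p = 0.037), with the gene length offset (0.033), with all 24 libraries in 1 fit (0.038), without replicate 2 (0.031) and without replicate 6 (0.024). SNHG5 (ENSG00000203875, hg19 chr6:86370710-86388451, minus strand), the host of SNORD50, had a median of 33.1 CPM in UT cells (25.5 to 48.8) and 35.9 CPM in PGCC cells (31.0 to 41.2). Its log2 fold change was -0.00 ± 0.16 over all libraries and 0.29 ± 0.12 (adjusted p = 0.057) without replicates 4 and 5. The replicate block on those remaining libraries, a fit chosen after seeing the data, called it higher in PGCC (0.29 ± 0.081, adjusted p = 0.0060). That fit called 6 host genes, SNHG1, SNHG5, SNHG7 and SNHG12 higher and SNHG6 and SNHG16 lower, beside 64.3% of all genes.

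The gap between replicates 4 and 5 and the rest was unequal across the host genes. In UT cells their mean was 2.07 times that of the other replicates for SNHG8, 1.58 times for SNHG5, 1.43 times for ZFAS1 and 1.38 times for SNHG16, beside 2.63 times for GAS5. SNHG12 and SNHG1 went the other way at 0.479 and 0.818 times, and SNHG6, SNHG7 and SNHG15 lay between 0.950 and 1.09 times. In PGCC cells the corresponding ratios of all 10 host genes lay between 0.816 and 1.12. What set these replicates apart was not tested.

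**Figure D2:**
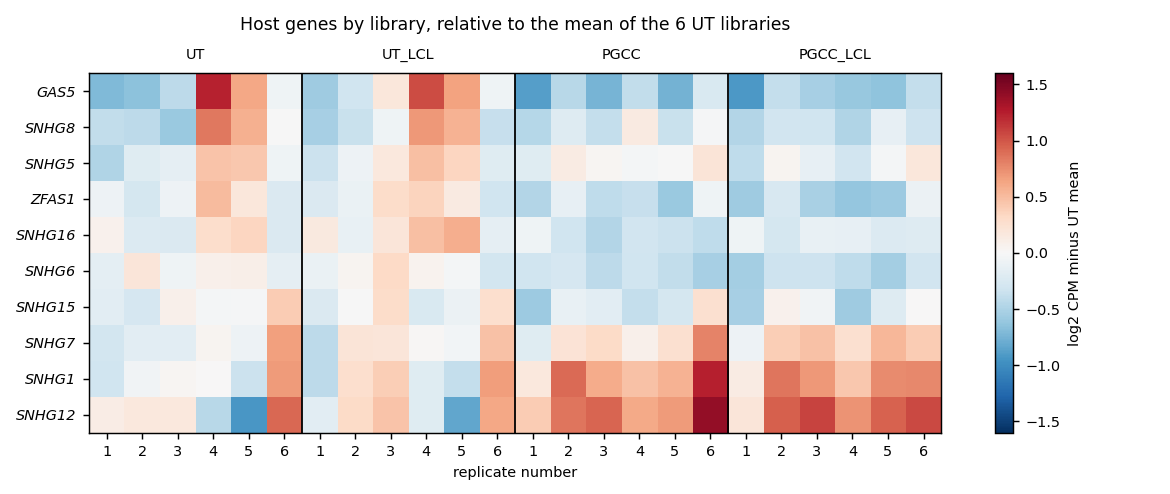
Log2 CPM of each host gene (rows) in each of the 24 libraries (columns, by replicate number within group), minus the mean of the 6 UT libraries. Red is higher and blue is lower. GAS5, SNHG8, SNHG5, ZFAS1 and SNHG16 are red in replicates 4 and 5 of UT and UT_LCL, SNHG12 is blue there in replicate 5, and SNHG1 and SNHG12 are red through the PGCC and PGCC_LCL columns.

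PGCC_LCL and UT_LCL cells give the comparison of the populations under the drug, in libraries that share none with the comparison above. The comparisons are still not independent, because same-numbered libraries with and without the drug deviated together. Their correlations over genes were 0.458 to 0.813 in UT cells and 0.385 to 0.619 in PGCC cells. Between PGCC_LCL and UT_LCL 6 of 10 host genes were called, beside 48.9% of all 13818 genes tested, 25.0% higher and 23.9% lower. SNHG12 (0.77 ± 0.22, adjusted p = 0.011) and SNHG1 (0.53 ± 0.19, adjusted p = 0.034) rose. GAS5, SNHG6, ZFAS1 and SNHG16 fell. SNHG6 again had no overlap between groups, with UT_LCL between 32.1 and 48.9 CPM and PGCC_LCL between 27.0 and 31.8 CPM (-0.39 ± 0.10, adjusted p = 0.0061), as 27.8% of genes did. With the replicate block SNHG7 was also called (0.28 ± 0.090, adjusted p = 0.024), giving 7 of 10 beside 56.3% of all genes.

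GAS5 ranged from 55.0 to 169 CPM in UT_LCL cells with a median of 85.3, and from 43.0 to 62.8 CPM in PGCC_LCL cells with a median of 55.0. It was lower in 6 of 6 pairs (-0.81 ± 0.24, adjusted p = 0.011), and without replicates 4 and 5 the change was -0.35 ± 0.17 (adjusted p = 0.099). ZFAS1 had medians of 158 and 106 CPM in UT_LCL and PGCC_LCL (-0.45 ± 0.14, adjusted p = 0.014), and -0.25 ± 0.14 without those replicates (adjusted p = 0.17). SNHG16 had medians of 219 and 173 CPM (-0.36 ± 0.12, adjusted p = 0.022), and -0.17 ± 0.093 without them (adjusted p = 0.16). SNHG1 was likewise not called without them (0.38 ± 0.21, adjusted p = 0.14), which left SNHG6 and SNHG12 called, 2 of 10 beside 52.5% of all genes. With the block on the same libraries GAS5 (-0.33, adjusted p = 0.018) and SNHG1 (0.41, adjusted p = 0.0036) were called as well, 4 of 10 beside 57.5%. Leaving out replicate 4 or 5 alone brought the count of 6 down to 3, beside 45.8% and 45.2% of all genes. The SNHG1 call was also lost without replicate 2, 3, 4 or 5 alone, at an adjusted p of 0.087, 0.053, 0.064 and 0.11. SNHG16 was lost without replicate 4 (0.063) or 5 (0.081), and ZFAS1 without replicate 3 (0.067), 4 (0.063) or 5 (0.052). SNHG5, SNHG8 and SNHG15 did not pass the test, with log2 fold changes of -0.16, -0.38 and -0.18, and of 0.07, -0.0021 and -0.18 without replicates 4 and 5. SNHG7, SNHG12 and SNHG6 stood at 0.19, 0.56 and -0.35 without them.

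**Figure D3:**
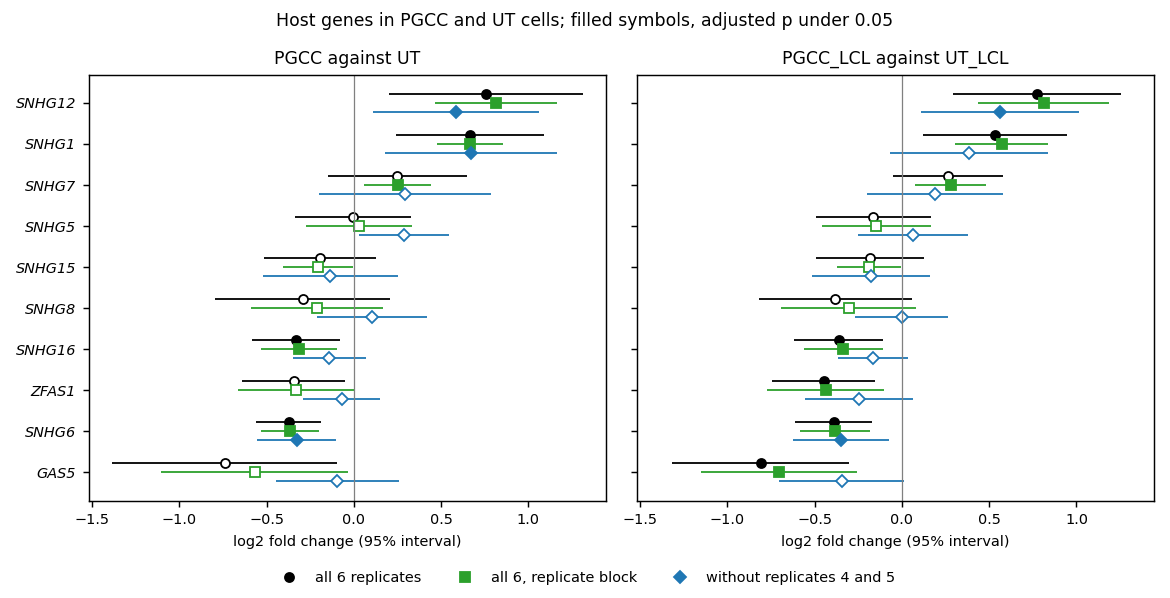
Log2 fold change of each host gene (x axis, with its 95% interval) in PGCC against UT (left) and PGCC_LCL against UT_LCL (right). Black circles use all replicates, green squares add the replicate block and blue diamonds leave out replicates 4 and 5, and filled symbols have an adjusted p under 0.05. SNHG6 and SNHG12 are filled in every fit shown, and the blue diamond of GAS5 on the left lies at -0.10.

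LCL521 was compared with no drug within each population. No host gene was called in UT cells, where edgeR called 0 of 13277 genes (71 had an unadjusted p under 0.05, and DESeq2 and limma-voom also called 0). None was called in PGCC cells, where 1 of 14151 genes (0.00707%) was called. The log2 fold changes of the host genes lay between -0.03 and 0.20 in UT cells and between -0.14 and 0.15 in PGCC cells. The drug by population interaction called 0 of 14555 genes, 60 of them with an unadjusted p under 0.05, and the host genes lay between -0.18 and 0.01 in it.

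When the replicate number entered the fit as a block, 115 genes (0.866%) were called in UT cells and 234 (1.65%) in PGCC cells, and SNHG16 was the only host gene among the former. SNHG16 was higher with LCL521 in 6 of 6 UT pairs, by 0.09 to 0.43 in log2 CPM, with a log2 fold change of 0.20 ± 0.044 (adjusted p = 0.046 with the block and 1.0 without). In PGCC cells it was higher in 5 of 6 pairs and its fold change was 0.15 ± 0.040 (adjusted p = 0.051 with the block). Without replicates 4 and 5 the blocked fit, chosen after seeing the data, called SNHG16 in neither population, at 0.19 ± 0.060 (adjusted p = 0.33) in UT cells and 0.14 ± 0.049 (adjusted p = 0.24) in PGCC cells. The difference between the effects in the 2 populations, the interaction, was -0.05 ± 0.17 in a fit with no block within each population. Its SE is therefore not comparable with those of the blocked effects. Its groups overlapped in both populations, with medians of 184 CPM in UT and 219 in UT_LCL, and of 154 CPM in PGCC and 173 in PGCC_LCL.

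SNHG5 was lower with LCL521 in 6 of 6 PGCC pairs, by 0.02 to 0.28 in log2 CPM, and its fold change of -0.13 ± 0.049 did not pass the test with the block (adjusted p = 0.22), nor did -0.12 ± 0.059 in the blocked fit without replicates 4 and 5 (adjusted p = 0.50). In UT cells it was higher in 4 of 6 pairs. The remaining host genes showed pairs in both directions in each population. SNHG1 and SNHG12, which were higher in PGCC, showed no one-sided response: SNHG12 was higher with the drug in 4 of 6 pairs of each population, and SNHG1 in 2 of 6.

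**Figure D4:**
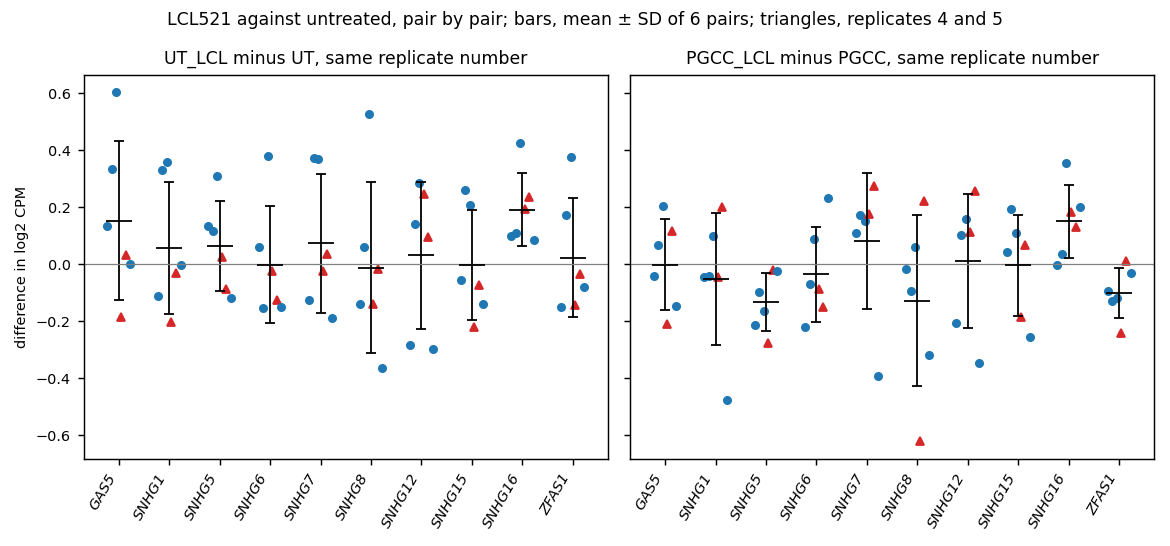
Difference in log2 CPM between LCL521 and no drug for each host gene (x axis) in same-numbered libraries of UT cells (left) and PGCC cells (right). Blue circles are replicates 1, 2, 3 and 6, red triangles are replicates 4 and 5, and bars are the mean ± SD of 6 pairs. SNHG16 lies above 0 in 6 of 6 UT pairs and SNHG5 below 0 in 6 of 6 PGCC pairs.

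Other genes of the same pathways were read from gene lists, and each count below is of genes called in PGCC against UT. These counts stand beside 47.4% of all genes called in this comparison, 23.1% higher and 24.3% lower in PGCC. Of 9 other non-coding snoRNA host genes tested, 2 rose and none fell, with a median log2 fold change of 0.35. With the replicate block 5 rose, beside 56.2% of all genes called. SNHG14, the long transcript that carries the imprinted snoRNA clusters of the Prader-Willi region, rose most (0.96 ± 0.096, adjusted p = 2.7e-06). Of 23 protein-coding snoRNA host genes, none rose and 10 fell (median -0.34), with GNB2L1, which encodes the ribosome-bound scaffold RACK1, falling by 0.84 on the log2 scale. The lists share genes, so their counts partly repeat the same falls. EEF2 and GNB2L1 are also among the other TOP mRNAs below, and NOP56, NOP58 and DKC1 are also among the snoRNP proteins.

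Of 78 cytosolic ribosomal protein genes, the best known TOP mRNAs, none rose and 73 fell, with a median of -0.65, and RPL10 fell most (-1.31 ± 0.061). Of 16 other TOP mRNAs, none rose and 13 fell (median -0.57), with the elongation factor EEF1A1 at -1.07 ± 0.081. The 3 host genes whose RefSeq first base opens a pyrimidine run did not move together: SNHG12 rose, and SNHG5 and ZFAS1 had log2 fold changes of -0.00 and -0.35 that did not pass the test. This grouping rests on the RefSeq start, and most GENCODE transcripts of each of these genes did not begin with such a run.

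Of 18 snoRNP proteins and assembly factors, 1 rose and 9 fell (median -0.27). DKC1, the pseudouridine synthase of box H/ACA particles, fell most (-0.70 ± 0.12), and NOP10, a subunit of the same particles, rose by 0.21 ± 0.077 (adjusted p = 0.035), a call that the gene length offset ended (0.07, adjusted p = 0.58) and that was lost on leaving out any replicate but 3. Of 17 nonsense-mediated decay factors, 2 rose and 5 fell (median -0.18), from SMG5 at 0.36 ± 0.086 to NBAS at -0.60 ± 0.13. Without replicates 4 and 5 the counts were 5 and 8, beside 54.6% of all genes called. Of 19 regulators of TOP translation and mTORC1, 1 rose and 10 fell (median -0.26), from TSC2, an mTORC1 inhibitor, at 0.27 ± 0.076 to RRAGB, a Rag GTPase, at -1.23 ± 0.093.

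**Figure D5:**
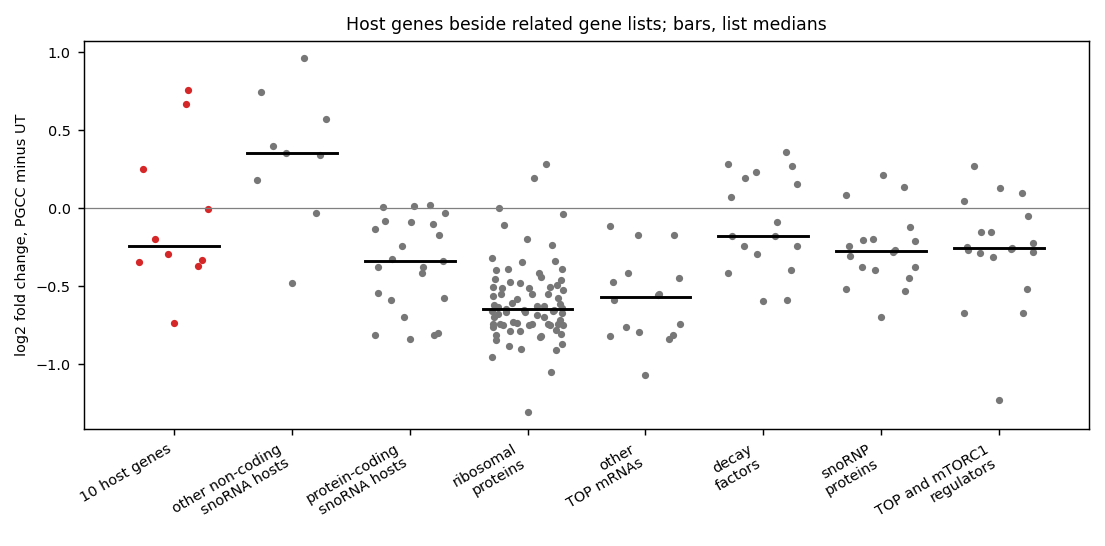
Log2 fold change of PGCC against UT (y axis) for every tested gene of 8 lists (x axis), with the 10 host genes in red, the others in grey and black bars at the list medians. The bar of the host genes lies at -0.24, that of the other non-coding snoRNA hosts at 0.35 and that of the ribosomal protein genes at -0.65.

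Several host genes share DNA with a gene on the opposite strand, and it is not stated that counting used the strand, so reads in the shared bases could not be assigned to either with certainty. ZNFX1 overlaps ZFAS1 by 249 bases and the annotated starts lie 248 bases apart. ZNFX1 rose in PGCC (1.36 ± 0.16, adjusted p = 1.3e-05) while ZFAS1 had a change of -0.35. SLC3A2, the heavy chain of a set of amino acid transporters, starts 132 bases from SNHG1 on the other strand without overlap. It fell by 0.81 on the log2 scale (SE 0.18, adjusted p = 0.0017) where SNHG1 rose by 0.67, and without replicates 4 and 5 it stood at -0.44 ± 0.091.

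FAM69B overlaps SNHG7 by 2685 bases and fell (-0.63 ± 0.13, adjusted p = 0.0013). TRNAU1AP overlaps SNHG12 by 2 bases and fell by 0.37 on the log2 scale (adjusted p = 0.021), opposite to SNHG12. The TRNAU1AP call was lost without replicates 4 and 5 (adjusted p = 0.061). It was also lost in 4 of 6 fits that left out 1 replicate (adjusted p up to 0.076). ZBTB37 overlaps GAS5 by 801 bases and had a mean of only 26.2 counts per library. It rose by 0.67 ± 0.25 (adjusted p = 0.039), a call that was lost on leaving out any replicate but 6. ST6GALNAC2 overlaps SNHG16 by 1639 bases and did not pass the test without the block (0.69 ± 0.33, adjusted p = 0.099) and did with it (0.73 ± 0.23, adjusted p = 0.022). MCMDC2, which overlaps SNHG6 by 365 bases, and GAS5-AS1 averaged 6.25 and 5.17 counts per library and are given no values.

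Some of the host genes varied together within groups. Each library's deviation from its group mean was taken in log2 CPM, and the 16 libraries of replicates 1, 2, 3 and 6 were used because the other 8 form a separate set. GAS5, SNHG1, SNHG5, SNHG7, SNHG8, SNHG12 and SNHG15, a set picked after the values were seen, had pairwise correlations between 0.64 and 0.97 over 21 pairs. Over all 24 libraries the same pairs lay between -0.44 and 0.94, the lowest that of SNHG8 and SNHG12. ZFAS1 correlated with these at 0.25 to 0.74, SNHG6 at -0.16 to 0.46 and SNHG16 at -0.65 to -0.15 over the 16 libraries. The libraries share replicate numbers and total counts, and the correlations are given as descriptions.

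The genes whose pattern was most like the mean of the 10 host genes were sought among the other 14545 genes. By log2 CPM over 24 libraries they were TAF1D (r = 0.90), CCNL1 (0.86), ZNF550 (0.83), ZNF767 (0.82) and SEPT7P2 (0.81). By deviations from group means they were RABGGTB (0.91), TAF1D (0.90), ZNF550 (0.89), C1orf63 (0.89) and CCNL1 (0.87). TAF1D and RABGGTB are themselves protein-coding genes with snoRNAs in their introns, and CCNL1 encodes a cyclin of the splicing machinery. Over the 16 libraries of replicates 1, 2, 3 and 6, RABGGTB ranked first (0.95), ZNF550 was at rank 4 and TAF1D at rank 7, while SEPT7P2 was at rank 392.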

How the data were processed

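The 24 libraries were made from total RNA of PPC1 cells and sequenced for gene expression. Per the labels, the authors used CASAVA, STAR, HTSeq and DESeq2 with hg19, and they deposited raw counts per gene with Ensembl identifiers, symbols and hg19 coordinates. The library kit primed with random hexamers and no strand-marking step is named. Each library is identified by its group and replicate in the labels, and no per-library column was left out (0). Whether the replicates were separate cultures is not stated, so p-values measure the spread between these samples. The host genes and gene lists were chosen with earlier results of these data known.

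Counts as deposited were tested with edgeR 4.0.16 (R 4.3.3, filterByExpr with a minimum count of 10 and minimum total of 15, TMM factors, quasi-likelihood test) on the libraries of each comparison, and on all 24 for the interaction. P-values were adjusted by Benjamini-Hochberg over all genes tested, with a threshold of 0.05. CPM were computed from total counts and TMM factors, and log2 CPM with a prior count of 2. Same-numbered libraries deviated together, with correlations of at least 0.171 in every pair of every comparison (above the minimum of 0.1). The replicate number was therefore taken as a pairing found in the data, and the fit with it as a block is an alternative. The same number gave the highest correlation for 5 of 6 UT libraries with PGCC and 3 of 6 UT_LCL libraries with PGCC_LCL. It did so for 6 of 6 in each LCL521 comparison. Replicates 4 and 5 stand apart in every group, which can raise these correlations but does not sort the libraries within each set. The 6 of 6 matches in each LCL521 comparison therefore go beyond that split, while the matches between the populations were incomplete. What links same-numbered libraries is not stated in the labels. Exact permutation tests covered all divisions of 12 libraries. The alternatives were DESeq2 1.42.0, limma-voom 3.58.1, RLE factors, library totals, other filters, a gene length offset, all libraries in 1 fit and left-out replicates. The fits were tested on simulated data. Named genes were the host genes, the largest called rise and fall of each list, overlapping rows with a mean of at least 10 counts, opposite-strand protein-coding starts within 5000 bases, and the 5 genes most like the host genes by each measure. Promoters are RefSeq sequences and snoRNAs GENCODE v29 sequences, both on GRCh38, and no coordinates were converted.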

Additional observations from a re-analysis of the deposited data

Results flagged for a closer look

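In 2 of the 40 sets of 6 libraries, 10 host genes in 4 groups, the library farthest out in log2 CPM had a gap to its neighbour larger, as a share of the whole range, than Dixon's 95% limit for 6 samples. Both were replicate 6 of UT cells, where SNHG1 stood at 108 CPM (gap 0.631 of the range) and SNHG7 at 44.6 CPM (gap 0.642). Chance gives about 1 such library in 20 sets.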

How the results depend on the processing

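SNHG6 kept its direction and its call in both population comparisons under every alternative run, from -0.42 to -0.34 when 1 replicate was left out of PGCC against UT. Leaving out 1 replicate at a time gave 2 to 5 host genes called in PGCC against UT and 3 to 6 in PGCC_LCL against UT_LCL. These stand beside 39.8% to 45.9% and 41.5% to 45.8% of all genes. The other alternatives gave 3 to 6 and 2 to 8 host genes. In them the share of all genes was lowest with no filter beyond 1 count, at 7675 of 29759 and 8035 of 29659. It was highest with the block without replicates 4 and 5, at 64.3% and 57.5%. Without replicates 4 and 5 together and no block, 2 host genes were called in PGCC_LCL against UT_LCL, beside 52.5%. The replicate block changed the LCL521 counts most: 115 genes in UT cells and 234 in PGCC cells, 234 and 260 with the gene length offset added, and 3 and 129 without replicates 4 and 5 (an alternative chosen after seeing the data). The host gene SNHG16 accounted for the count of 1 in UT cells with the block, with or without the length offset, and for the count of 1 in PGCC cells with both. In PGCC cells LCL521 called 6 genes with DESeq2, 0 with limma-voom, 0 with all 24 libraries in 1 fit, 0 without replicates 4 and 5, and 0 to 1 with 1 replicate left out. The interaction called 0 genes under each alternative, the block within each population included, also chosen after seeing the data.

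SNHG5 in PGCC against UT turned from -0.0031 to 0.0086 with DESeq2 and with RLE factors, 0.0323 with limma-voom, 0.0913 with library totals, 0.0311 with at least 10 counts in every library, 0.0297 with the replicate block, 0.29 without replicates 4 and 5 and 0.29 with the block added, and ranged from -0.0717 to 0.11 with 1 replicate left out. SNHG8 turned to 0.10 and 0.11 in the latter 2 fits. In PGCC_LCL against UT_LCL without replicates 4 and 5, SNHG5 turned to 0.0654 and, with the block, 0.0641, and SNHG8 with the block to 0.0068. The causes were not tested. Among the LCL521 fold changes of the host genes, 18 of 180 alternative values in UT cells and 23 of 180 in PGCC cells had the other sign, none of them of SNHG16 or SNHG5. With all replicates, the block changed no call of a host gene beyond those of SNHG7 and SNHG16 given above, and without replicates 4 and 5 it added calls of SNHG5, SNHG7 and SNHG16 in PGCC against UT and of GAS5 and SNHG1 in PGCC_LCL against UT_LCL. The host genes had 125 counts or more in every library, and how much of the spread between replicates was counting error was not tested.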
